A study of Rattus norvegicus with 30 samples.

Results

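miR-9a-5p (rno-miR-9a-5p) was followed in the urinary exosomes of rats during the first 3 days after renal ischemia-reperfusion injury (IRI). It is 1 of 122 miRNAs listed in the tables of the 5 days, and it was selected on its scaled values in IRI and sham rats at days 1, 2 and 3, so these values are described here without a test. Small RNA was sequenced from the urinary exosomes of 3 IRI rats (1, 2 and 13), whose renal pedicles had been clamped on both sides and released, and of 3 sham rats (3, 6 and 9), which had the same operation without clamping. All were male Sprague Dawley rats, 10 weeks old, and the same 6 rats gave urine on each day. Each of the 18 libraries of days 1 to 3 is therefore 1 rat on 1 day (n = 3 rats per group and day).

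A miRNA lowers the output of mRNAs that pair with its seed, the bases near its 5′ end. miR-9 is a conserved miRNA known best from the nervous system, where it acts in the formation of neurons, and in human monocytes it is induced through NF-κB. The study set miR-9a-5p beside the miR-200 family and miR-148a-3p for their course in urine, and then looked for shared targets of miR-9a-5p and the family, among them Zeb1 and Zeb2, transcription factors that repress epithelial genes. It reported their largest joint increase at day 3. It also reported RT-qPCR of select miRNAs, after another exosome isolation, with changes like those in sequencing. Those RT-qPCR measurements are not part of the data read here. Exosomes in urine come largely from the epithelial cells of the kidney and the urinary tract, and a change in their miRNA content cannot be told apart here from a change in the number of vesicles or in the cells that release them.

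The sequences below show both arms of miR-9a and 3 of the miRNAs set beside miR-9a-5p, with the seed (bases 2 to 8) in capitals. They are mature sequences from RefSeq (GRCr8), which holds entries for 105 of the 118 miRNAs listed on days 1 to 3.
rno-miR-9a-5p: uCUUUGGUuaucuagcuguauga
rno-miR-9a-3p: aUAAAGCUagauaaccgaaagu
rno-miR-200c-3p: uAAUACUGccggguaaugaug
rno-miR-141-3p: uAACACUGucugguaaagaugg
rno-miR-148a-3p: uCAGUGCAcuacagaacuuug

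The seed of miR-9a-5p, CUUUGGU, was held by 1 of the 693 mature miRNAs of the RefSeq table, miR-9a-5p itself. It differs from the seeds of miR-200c-3p and miR-141-3p. The same 23 bases of miR-9a-5p are annotated at 3 loci of GRCr8, all on the plus strand. These are Mir9-3 at chr1:142849415-142849437, within the span of the lncRNA gene Mir9-3hg, Mir9-2 at chr2:15933307-15933329, within the span of Mir9-2hg, and Mir9-1 at chr2:175974986-175975008, within the span of the lncRNA gene LOC100911992. Reads of 1 locus cannot be told from those of the others. At each locus a miR-9b hairpin lies on the opposite strand. The letters GGAG, a motif linked with sorting into exosomes, were searched in the mature RNA as written, 5′ to 3′. They are absent from miR-9a-5p and present in 8.08% of all mature miRNAs of the RefSeq table and 10.5% of the 105 matched ones. The other arm, miR-9a-3p, and both miR-9b arms were listed on none of days 1 to 3.

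The deposited values are counts that the authors scaled, separately for each day. In each library all low values were whole multiples of 1 step, within 0.1, which was taken as the worth of 1 read. In these units the listed miRNAs amounted to 11165 to 50722 reads in IRI libraries and 935 to 2125 reads in sham libraries at day 1. They amounted to 1122 to 10542 reads in IRI libraries and 696 to 1955 in sham libraries at day 2, and to 691 to 12739 reads in IRI libraries and 289 to 909 in sham libraries at day 3. The IRI libraries were thus deeper at day 1, and at days 2 and 3 the deepest library was that of IRI rat 13.

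miR-9a-5p moved in larger steps than most miRNAs. Its 10 values worth up to 200 reads were all multiples of 3 reads. Among the other 117 miRNAs, 28.5% of the values up to that size were multiples of 3. Of the 67 others with at least 10 such values, miR-29b-3p was the only one whose values were all multiples of 3, named here after its values were seen. miR-29b-3p is annotated at 2 loci. Of the other 117 miRNAs, 14 had only even values (on 3 to 18 values each), 10 of these with 1 annotated locus and 4 with 2. Whether a read was counted once for each of the 3 loci of miR-9a-5p was not tested. In what follows 3 reads are therefore taken as 1 step of miR-9a-5p, and the exact 95% binomial intervals are computed on these steps. A value of 0 allows up to 3 steps. Intervals and limits cover counting error only. The plot of multiples by miRNA shows miR-9a-5p apart from nearly all others.

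**Figure D1:**
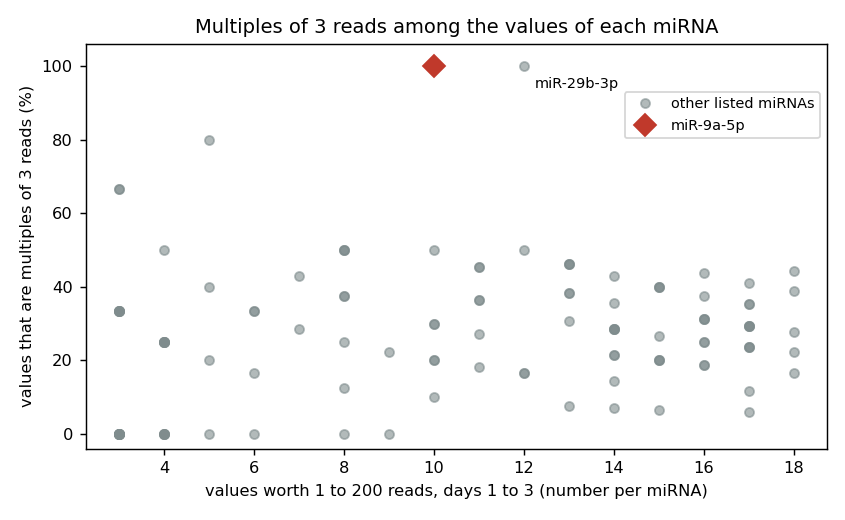
Each point is 1 miRNA of days 1 to 3, placed by the number of its values worth 1 to 200 reads (horizontal axis) and the percentage of those values that are multiples of 3 reads (vertical axis). miR-9a-5p (red diamond, 10 values) and miR-29b-3p (12 values) are at 100%, against 28.5% over all values of the miRNAs other than miR-9a-5p.

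At day 1, miR-9a-5p was found in all 3 IRI rats and in 1 sham rat, and the groups overlapped. The scaled values were 3737, 459 and 2248 in IRI rats 1, 2 and 13, against 0, 0 and 8428 in sham rats 3, 6 and 9. The sham rat with a value was higher than every IRI rat. The IRI mean was 2148 ± 1641 and the sham mean 2809 ± 4866 (SD, n = 3 rats each), a ratio of 0.765. On the log2(value + 500) scale, which lowers the weight of the single high sham value, the IRI mean was 0.77 above the sham mean, so the direction at day 1 depends on the scale. These values stand on 30, 2 and 33 steps in the IRI rats and on 3 steps in sham rat 9. The 0 of sham rat 3 allows up to 6564 and that of sham rat 6 up to 3618, and 2 of the 3 IRI values lie under both limits. Without sham rat 9 the log2 difference was 2.16, with both remaining sham libraries at 0.

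As a share of the listed reads, miR-9a-5p made up 0.252% in IRI rat 1 (0.17% to 0.36%), 0.0537% in IRI rat 2 (0.00651% to 0.194%) and 0.195% in IRI rat 13 (0.134% to 0.274%). In sham rat 9 the share was 0.963% (0.199% to 2.78%), and the counts of 0 allow 0.751% in sham rat 3 and 0.424% in sham rat 6. A difference between the groups was not detectable at this depth. By level, with reads not divided into steps, miR-9a-5p ranked 40, 78 and 47 among the 110 miRNAs of day 1 in IRI rats 1, 2 and 13, and 19 in sham rat 9.

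At day 2, miR-9a-5p reached its highest level of the 3 days in 1 rat. The values were 0, 5957 and 93820 in IRI rats 1, 2 and 13, against 0, 4883 and 2058 in sham rats 3, 6 and 9. IRI rat 13 stood far above the other 5 rats, whose ranges overlapped. The IRI mean was 33259 ± 52532 and the sham mean 2314 ± 2452 (SD, n = 3 rats each), a ratio of 14.4, and the log2 difference was 1.82. Without IRI rat 13 the means were 2978 in IRI and 2314 in sham, and the log2 difference was -0.08. The library of IRI rat 13 held 87.9% of the sum over the 6 rats of that day and 67.5% of the sum over all 18 libraries. For the median miRNA of day 2 the highest library held 36.5%, and no other of the 86 miRNAs reached 87.9%.

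In IRI rat 13 at day 2, miR-9a-5p made up 8.45% of the listed reads (7.55% to 9.42%), on 297 steps, and ranked 3 among the 86 listed miRNAs, after let-7f-5p and let-7c-5p at 14.1% each and ahead of let-7a-5p at 7.53%. The rank and the share of 8.45% are on reads, not steps. The 297 steps lie under the 794 reads of let-7a-5p, the 745 of miR-21-5p and the 571 of miR-200a-3p. With reads divided by the factors described below, the share was 3.06%. As a share of the listed reads, the same rat had 0.195% a day earlier and 0.377% a day later. In IRI rat 2 the share was 0.802% (0.166% to 2.33%), against 0.524% (0.108% to 1.53%) in sham rat 6 and 0.153% (0.00388% to 0.852%) in sham rat 9, on 3, 3 and 1 steps. The intervals of these 3 rats overlapped. IRI rat 1 held 0 of 3838 reads, which allows up to 0.234%, and sham rat 3 held 0 of 696 reads, which allows up to 1.29%. IRI rat 13 was sequenced in lane 4 at day 2, as was sham rat 9, while IRI rats 1 and 2 were in lane 2 and sham rats 3 and 6 in lane 3.

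**Figure D2:**
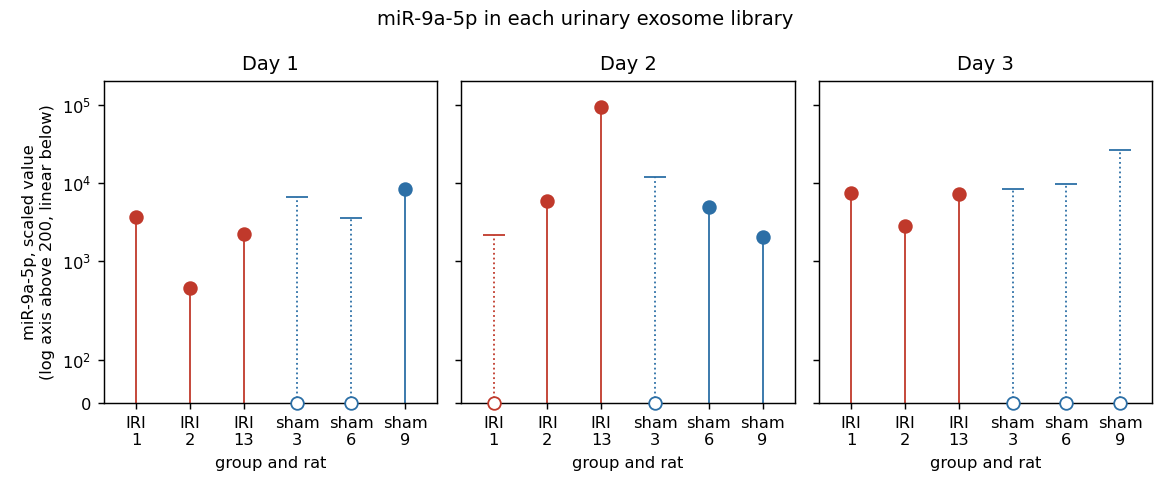
Scaled value of miR-9a-5p (vertical axis, logarithmic above 200 and linear below) in each library, with IRI rats in red and sham rats in blue, at days 1, 2 and 3. Open circles are values of 0, with a dotted line up to the value that 3 steps of miR-9a-5p would have in that library. IRI rat 13 at day 2 (93820) stands above all others, and at day 3 the IRI values (2829 to 7410) lie under the limits of the sham libraries (8488 to 26114).

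At day 3, miR-9a-5p was found in every IRI rat and in no sham rat. The values were 7410, 2829 and 7183 in IRI rats 1, 2 and 13, against 0 in sham rats 3, 6 and 9, so the groups did not overlap. The IRI mean was 5807 ± 2582 (SD, n = 3 rats), the log2 difference was 3.55, and its size depends on the constant of 500. The IRI values stand on 2, 1 and 16 steps. The zeros of sham rats 3, 6 and 9 allow up to 8488, 9605 and 26114, and all 3 IRI values lie under every one of these limits, so no fold is given. A difference of this size in a single sham library was not detectable at this depth.

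The shares at day 3 were 0.868% in IRI rat 1 (0.105% to 3.11%), 0.352% in IRI rat 2 (0.00891% to 1.95%) and 0.377% in IRI rat 13 (0.216% to 0.611%). The counts of 0 allow shares of 0.99%, 1.04% and 3.11% in sham rats 3, 6 and 9. In sum the sham libraries held 0 of 2060 listed reads, which allows up to 0.437%, a limit that only the share of IRI rat 1 exceeds. Sham rat 9 was the shallowest library of the 3 days, with 289 reads. IRI rat 13, which carried 48 of the 57 reads of the IRI group, was sequenced in lane 5 at day 3, IRI rats 1 and 2 in lane 2, and the sham rats in lanes 3 and 4. Lane and surgery cannot be told apart.

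miR-9a-5p was the 1 miRNA of 72 (1.39%) at 0 in every sham library and above 0 in every IRI library at day 3. The same pattern was held by 11 of 110 miRNAs (10%) at day 1 and by 1 of 86 (1.16%), miR-181b-5p, at day 2. At days 1, 2 and 3, 18 of 110 (16.4%), 1 of 86 (1.16%) and 5 of 72 (6.94%) miRNAs lay higher in every IRI rat than in every sham rat, and 4 (3.64%), 10 (11.6%) and 3 (4.17%) lay lower. A table lists only miRNAs above 0 in at least 3 libraries. miR-9a-5p met this minimum at day 3 through the IRI rats alone, and 14 of the 72 miRNAs were above 0 in exactly 3 libraries. In limma, with adjustment over all miRNAs of the day, 1 of 110 (0.909%), 1 of 86 (1.16%) and 1 of 72 (1.39%) miRNAs passed the threshold of 0.05 at days 1, 2 and 3, all higher in IRI. They were miR-101a-3p at day 1, miR-181b-5p at day 2 and, at day 3, miR-9a-5p itself. The fit covers every listed miRNA, but for miR-9a-5p it is no test, since it was chosen on these values and listed at day 3 through the IRI rats alone. miR-101a-3p at day 1 and miR-181b-5p at day 2 were also at 0 in every sham library and listed through the IRI rats alone. Their passing is likewise given as a description. An unadjusted p under 0.05 was held by 13 (11.8%), 9 (10.5%) and 5 (6.94%) miRNAs. The number passing at day 1 was 3 without IRI rat 2 and 2 without sham rat 6. At day 2 it was 0 without IRI rat 13, sham rat 3 or sham rat 6, and at day 3 it was 1 without IRI rat 2 and 0 without each of the other rats.

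Followed by rat, miR-9a-5p had no common course. In IRI rat 1 the share was 0.252%, 0 and 0.868% at days 1, 2 and 3, in IRI rat 2 it was 0.0537%, 0.802% and 0.352%, and in IRI rat 13 it was 0.195%, 8.45% and 0.377%. In each IRI rat the share was higher at day 3 than at day 1, but the intervals of these days overlapped in all 3. Sham rat 3 was at 0 on every day. Sham rat 6 had 0, 0.524% and 0, and sham rat 9 had 0.963%, 0.153% and 0. Over the 3 days IRI rats 1, 2 and 13 had 32, 6 and 346 steps, so that 90.1% of the steps came from rat 13. With the reads of each miRNA divided by the factor of 2 or 3 common to all its values, the shares of IRI rats 1, 2 and 13 were 0.0857%, 0.0183% and 0.066% at day 1, 0, 0.276% and 3.06% at day 2, and 0.302%, 0.12% and 0.127% at day 3.

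**Figure D3:**
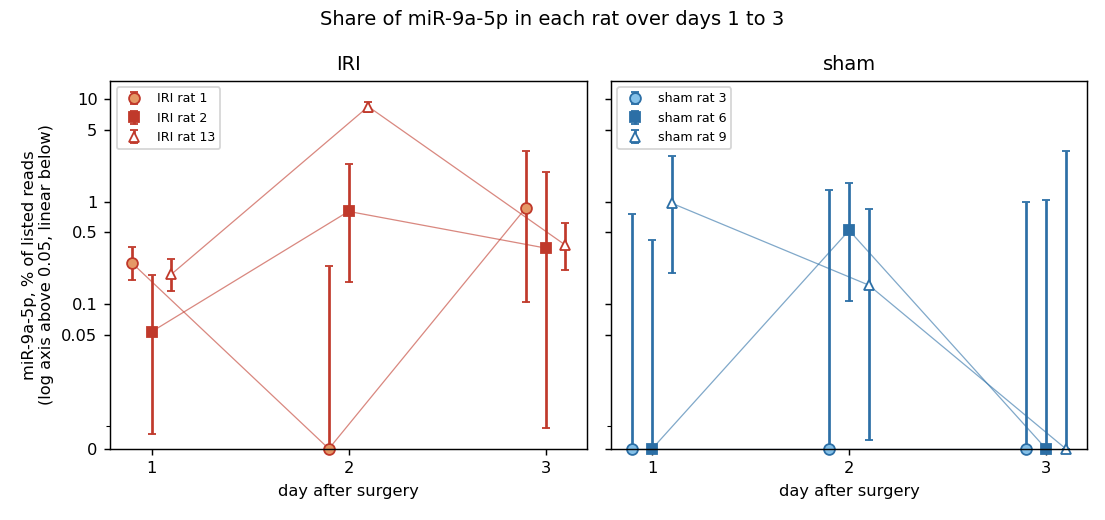
Share of miR-9a-5p in the listed reads of each library (vertical axis, percent, logarithmic above 0.05 and linear below) by day after surgery, with 1 line per rat, IRI rats on the left and sham rats on the right. Bars are exact 95% binomial intervals on steps of 3 reads, or for a share of 0 the limit set by 3 steps. IRI rat 13 reaches 8.45% at day 2, and at day 3 the IRI shares (0.352% to 0.868%) lie within the bars of the sham rats.

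Ordered by mean level, IRI at day 2 came first (33259), followed by IRI at day 3 (5807), sham at day 1 (2809), sham at day 2 (2314), IRI at day 1 (2148) and sham at day 3 (0). Each day was scaled on its own, so levels of different days are set side by side without a test. The first place rests on IRI rat 13 alone. Down to IRI at day 1, neighbours in this order differed by less than the larger of their standard deviations. IRI at day 1 and sham at day 3 differed by more, but the zeros of sham at day 3 allow higher values than the IRI mean of day 1. miR-9a-5p was not listed at days 7 and 14, which gives no value for those days. It shares this listing, on each of days 1 to 3 and on neither later day, with let-7d-3p, miR-101b-3p, miR-142-3p and miR-342-3p, out of 67 miRNAs listed on all 3 early days. The highest value of the other 4 on any of these days was 5803, for miR-142-3p in a sham rat at day 3.

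The partners of miR-9a-5p described here are miR-200c-3p, miR-141-3p, miR-200a-3p and miR-429 of the miR-200 family of epithelial cells, and miR-148a-3p, a miRNA of many tissues, as grouped by the study, with miR-200b-3p, the remaining member of the family, added. All 6 were listed on each day. None of the 6 passed the adjusted threshold at day 1, 2 or 3 in limma, against 0.909%, 1.16% and 1.39% of all miRNAs in the upward direction. At an unadjusted p under 0.05, 1, 0 and 1 of the 6 lay higher in IRI, beside 9 of 110 (8.18%), 2 of 86 (2.33%) and 4 of 72 (5.56%) of all miRNAs. The median log2 difference of the 6 was 1.50, 0.55 and 1.43 at days 1, 2 and 3, beside 0.30, 0.11 and 0.13 for all miRNAs of these days. At day 3 the median of the 6 was 0.40 without IRI rat 13, with 4 of 6 differences above 0, and 2.60 without IRI rat 1. At day 2 it was -0.16 without IRI rat 1 and -0.12 without IRI rat 13, with 2 of 6 above 0 each time, 0.28 and 0.17 without sham rats 3 and 6, and 1.61 and 1.17 without IRI rat 2 and sham rat 9. Of the 6, 5 were grouped by the study on these samples, so their direction is not independent evidence.

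miR-200c-3p, a repressor of Zeb1 and Zeb2 in epithelial cells, had the largest difference of the 6 at days 1 and 3, while at day 2 it had 0.57 and miR-200a-3p 0.89. At day 1 its values were 11129, 3062 and 14558 in IRI rats 1, 2 and 13, against 729, 402 and 936 in sham rats 3, 6 and 9, and the groups did not overlap. The same held upward for 16.4% of all miRNAs that day. Each of the 3 sham values is 1 read, against 268, 40 and 641 reads in the deeper IRI libraries. The log2 difference of miR-200c-3p was 2.87 with a standard error of 0.60 in limma (adjusted p = 0.0695). The adjusted p of this difference was 0.00937 without IRI rat 2, and ran between 0.0381 and 0.209 under the other alternatives. At day 3 its values were 2470, 2829 and 40852 in IRI rats 1, 2 and 13, against 943, 2135 and 0 in sham rats 3, 6 and 9, and the log2 difference was 2.58 with a standard error of 1.12 in limma (adjusted p = 0.665), or 1.34 without IRI rat 13. The day 3 values of miR-200c-3p stand on 2, 3 and 273 reads in IRI rats 1, 2 and 13 and on 1, 2 and 0 in sham rats 3, 6 and 9. Its highest IRI value at day 3 was again that of rat 13, while miR-9a-5p at day 3 was at like levels in rats 1 and 13. For miR-148a-3p at day 3 the values were 1235, 4715 and 62251 in IRI rats 1, 2 and 13, against 943, 0 and 5803 in sham rats 3, 6 and 9. The groups overlapped, and the log2 difference was 2.32 with a standard error of 1.36 in limma (adjusted p = 0.742). It was 0.86 without IRI rat 13 and 1.46 without sham rat 6.

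Within a library the ratio of reads does not depend on the scaling. The ratios here use reads of miR-9a-5p, not divided into steps. For 100 reads of the miR-200 family there were 8.26, 1.17 and 2.27 reads of miR-9a-5p in IRI rats 1, 2 and 13 at day 1, against 0, 0 and 19.6 in sham rats 3, 6 and 9. At day 2 there were 0, 34.6 and 74.5 in IRI rats, against 0, 19.1 and 1.94 in sham rats. At day 3 there were 28.6, 8.57 and 2.28 in IRI rats, against 0 in each sham rat. The day 3 ratios stand on 6, 3 and 48 reads of miR-9a-5p beside 21, 35 and 2103 family reads in IRI rats 1, 2 and 13. Sham rats 3, 6 and 9 had 24, 16 and 10 family reads at day 3. With up to 3 steps allowed for a 0, each sham rat allows a ratio above every IRI ratio of that day. At days 1 and 2 the sham family reads were also few, at 15 to 155. The IRI rats ranged widely, and the highest of them was rat 1 at days 1 and 3 and rat 13 at day 2. In IRI rat 13 the family itself made up 8.59%, 11.3% and 16.5% of the listed reads at days 1, 2 and 3, while miR-9a-5p made up 0.195%, 8.45% and 0.377%.

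**Figure D4:**
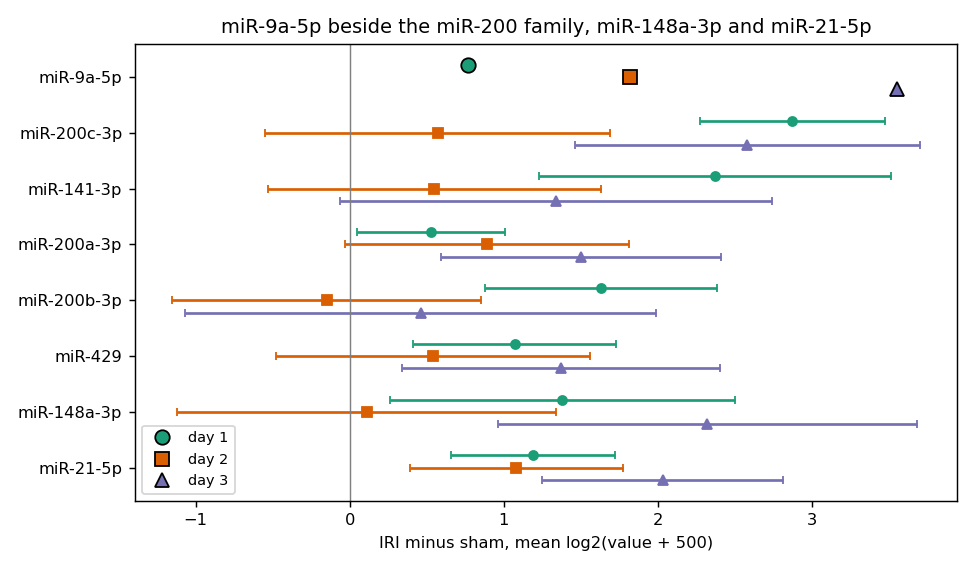
IRI minus sham difference of the mean log2(value + 500) (horizontal axis) for miR-9a-5p, the miR-200 family, miR-148a-3p and miR-21-5p (rows) at days 1, 2 and 3 (circle, square, triangle). Bars are standard errors from limma, and miR-9a-5p, chosen for these values, is drawn without one. miR-9a-5p lies at 0.77, 1.82 and 3.55, and miR-200c-3p at 2.87, 0.57 and 2.58.

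Likeness to miR-9a-5p was measured by Pearson r of log2(value + 500) over the 18 libraries, centred by day, for the 66 other miRNAs listed on all 3 days and above 0 in at least 9 libraries. It is a description, since the libraries share 6 rats and differ in depth along with the group. The most alike were miR-21-5p (r = 0.68, Spearman rho = 0.67), miR-101b-3p (r = 0.67, rho = 0.66), miR-24-3p (r = 0.61, rho = 0.54), miR-125b-5p (r = 0.53, rho = 0.48) and miR-200a-3p (r = 0.50, rho = 0.48). The median r was 0.10 and the lowest was -0.71, for miR-192-5p, a miRNA abundant in kidney tubules. Other kidney tubule miRNAs of the list used below ran from -0.23 for miR-30c-5p to 0.48 for miR-10a-5p and 0.49 for miR-30d-5p, so the tubule miRNAs had no common direction. Without the library of IRI rat 13 at day 2, miR-21-5p remained first (r = 0.68) and miR-101b-3p came next (r = 0.55). Within the 9 IRI libraries alone r was 0.82 for miR-101b-3p and 0.39 for miR-21-5p. The 6 partners had r between 0.21 and 0.50 over the 18 libraries. Within the 9 IRI libraries alone their r lay between 0.02 for miR-141-3p and 0.27 for miR-200a-3p, beside a median of 0.09 for all compared miRNAs.

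miR-21-5p, which is induced in injured and inflamed tissue, was the 1 member of 5 of the inflammation-responsive list that was listed at day 3. Its values then were 53106, 49036 and 167748 in IRI rats 1, 2 and 13, against 11317, 20278 and 26114 in sham rats 3, 6 and 9. The groups did not overlap, and the log2 difference was 2.03 with a standard error of 0.78 in limma (adjusted p = 0.647). The sham values at day 3 stand on 12, 19 and 9 reads. At days 1 and 2 the groups overlapped for miR-21-5p, with log2 differences of 1.19 and 1.08 in limma (adjusted p = 0.37 and 0.639). Of the other 4 miRNAs of that list, miR-146a-5p, miR-155-5p and miR-132-3p were listed on none of days 1 to 3. miR-146b-5p was listed at day 1 only, at a log2 difference of 0.26 with a standard error of 0.49 in limma (adjusted p = 0.864).

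Markers of tissues that could contribute miR-9a-5p were read in the same libraries. Of 8 neuron-enriched miRNAs, miR-128-3p and miR-218a-5p were listed at day 1, at a summed value of 919 to 1910 in IRI rats and 0 to 2010 in sham rats, and none was listed at days 2 and 3. miR-124-3p, the defining miRNA of neurons, was listed on none of the 3 days. The 1 leukocyte marker listed of 5, miR-142-3p, was at 0 to 386 in IRI rats and 0 to 1873 in sham rats at day 1, at 0 to 3357 in IRI rats and 0 to 1308 in sham rats at day 2, and at 0 to 2829 in IRI rats and 0 to 5803 in sham rats at day 3. Of 3 muscle miRNAs, miR-206-3p was listed at day 1 only, at 0 to 995 in IRI rats and 0 to 402 in sham rats. Of 4 erythroid miRNAs, the defining miR-451-5p and miR-144-3p were not listed, and miR-16-5p, which many tissues hold, and at days 1 and 3 miR-486 were. Their summed value was 32500 to 77694 in IRI rats and 9482 to 12865 in sham rats at day 1, 21179 to 32116 in IRI rats and 13035 to 24957 in sham rats at day 2, and 25461 to 57911 in IRI rats and 15089 to 25614 in sham rats at day 3. Most of it was miR-16-5p, which was higher in every IRI rat than in every sham rat at days 1 and 3. miR-486 had 0, 536 and 23 in IRI rats 1, 2 and 13 at day 1, against 1459, 402 and 936 in sham rats 3, 6 and 9. Their part in the level of miR-9a-5p was not tested. The kidney tubule list had 9 of 9 miRNAs listed at day 1 and 8 of 9 at days 2 and 3, with a summed value of 83923 to 133347 in IRI rats and 71932 to 115264 in sham rats over the 3 days, and 0 of them passed the adjusted threshold of limma or had an unadjusted p under 0.05 on any day, beside the shares of all miRNAs given above (adjusted 0.909%, 1.16% and 1.39%, unadjusted 11.8%, 10.5% and 6.94%). With 8 or 9 miRNAs such a count is near these shares.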

How the data were processed

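Urinary exosome small RNA was analysed in the libraries of days 1, 2 and 3, and the tables of days 7 and 14 were read for their lists. The authors built libraries with a QIAseq kit, trimmed adaptors with Cutadapt, aligned to the rat genome (version 5) with Bowtie and the miRDeep2 mapper in CAP-miRseq and counted with HTSeq. Tool versions are not given in the sources used here. The deposited signal values are counts the authors scaled for each day. Their scaling method is not given in the sources used here. Columns with the authors' own edgeR fold changes, p-values and FDR were not used. Sample columns were matched to the labels by group, rat and day.

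miR-9a-5p and the 8 miRNA lists were chosen with earlier results of these data known. Named are miR-9a-5p, list members, the 5 miRNAs most like it and those that passed the threshold. Groups were compared with limma 3.58.1 in R 4.3.3 on log2(value + 500), with Benjamini-Hochberg adjustment over each table and no filter. miR-9a-5p was part of this fit, but its outcome is not taken as a test. The fit was tested on simulated data with known changes. Labels give separate rats. Other values used Python 3.11.15, pandas 2.3.3 and SciPy 1.17.1. Alternatives were constants, filter, scaling, threshold and leaving out rats. Steps of 3 reads were chosen after the data were seen.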

Additional observations from a re-analysis of the deposited data

How the results depend on the processing

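The log2 difference of miR-9a-5p kept its sign under every setting tried at day 1, and at day 2 under all but 1. All settings were on a log scale, and at day 1 the ratio of the means of the scaled values was 0.765. At day 3 the sign could not change, since every sham library was at 0 and every IRI library above 0. At day 1 the log2 difference was 0.77, with 0.17 to 2.57 under other constants and scalings and 0.08 to 2.16 when 1 rat was left out. At day 2 it was 1.82, with 1.04 to 1.98 under other constants and scalings, and over the rats left out in turn it ran between -0.082 without IRI rat 13 and 3.697 without IRI rat 1. At day 3 it was 3.55, and 6.75, 1.90 and 3.01 with constants of 50, 2000 and 0.5 read, since the sham libraries are at 0. With equal totals the median difference of all miRNAs was 0.11, 0.26 and -0.12 at days 1, 2 and 3, against 0.30, 0.11 and 0.13 with the deposited scaling, and that of miR-9a-5p was 0.54, 1.98 and 3.47. The share of the day held by the highest library was 56.7%, 87.9% and 42.5% at days 1, 2 and 3. For the median miRNA of these days it was 37.9%, 36.5% and 37.2%. With miR-9a-5p included, 10 of 110, 1 of 86 and 22 of 72 miRNAs had a share at least as high. The share for miR-9a-5p was 65.8%, 85.1% and 54.4% with equal totals, and 48.5%, 97.7% and 84.2% at days 1, 2 and 3 in reads, where the deepest library weighs most. The number of miRNAs passing at day 1 was 1, and 9, 2 and 4 with a constant of 50, of 0.5 read and equal totals, and 1 to 3 when 1 rat was left out (3 without IRI rat 2, 2 without sham rat 6). With only miRNAs above 0 in at least 5 libraries the number at day 1 was also 1. That filter leaves out miR-101a-3p, and the miRNA passing was miR-200c-3p (adjusted p = 0.0381 in limma). At day 2 the number passing was 1, and 2, 2 and 0 with constants of 2000 and 0.5 read and with only miRNAs above 0 in at least 5 libraries, and 0 without IRI rat 13, sham rat 3 or sham rat 6 (0 to 1 over all rats). At day 3 it was 1, and 0 with constants of 2000 and 0.5 read, with that filter, at a threshold of 0.01, and without any 1 rat other than IRI rat 2 (0 to 1). Of the 5 miRNAs most like miR-9a-5p, 3 were again among the 5 in IRI libraries alone, and 3 to 4 when 1 rat was left out. Except where a value above shows it, the cause was not tested. The planned count tests with edgeR and DESeq2 were not run, since the deposited values are not counts. No paired analysis was possible because IRI and sham rats carry different numbers and each day was scaled on its own. Depth limits sham levels most, where 1 step of miR-9a-5p is worth 1206 to 8705.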
